A study of Homo sapiens and Mus musculus with 16 samples.

Results

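Accessible chromatin around protein-coding genes was compared between 2 mouse cell lines. One came from a primary pancreatic tumor of a KPC mouse, a model that develops pancreatic cancer on its own, and the other from a liver metastasis (mets). The study describes the lines as isogenic and matched. Both were untreated, carry the genotype label WT and were grown in culture, so neither holds the liver or the tumor stroma, and each is a single line of its kind. ATAC-seq, in which a transposase marks DNA that is free of nucleosomes, was run on 4 replicates per line, 8 of the 16 samples in the series. Each line is represented by 1 list of accessible regions that stands for its 4 replicates. No difference below therefore has a replicate check, no p-value was computed and the read depth is unknown.

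The mets list held 80843 regions and the tumor list 68074, in mm10 coordinates. A region was assigned to the gene with the nearest protein-coding start site, where one lay within 50 kb. By this rule 60339 mets regions and 52078 tumor regions were assigned, and 16117 of 21951 protein-coding genes received at least 1 region from either list. A region overlapping the other list by at least 1 bp was shared, and otherwise it was mets-only or tumor-only. Strength was read as the percentile of a region's score within its own list, where 100 is the strongest. The rank change of a shared region is its percentile in the mets list less that in the tumor list, less the median over all shared regions, which was 3.67 points.

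Many accessible regions far from start sites are enhancers, short stretches at which transcription factors bind and from which a gene some distance away can be activated. Whether a region here is an enhancer was not tested. A gene with many such regions is often one whose activity depends on cell identity, whereas genes used in every cell tend to be served by a region at the start site itself. The nearest gene is a working assignment, since an enhancer may act on a gene further away. In pancreatic cancer cells, accessible enhancers commonly carry sites of AP-1 and of the forkhead factor FOXA1, which can bind nucleosomal DNA.

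Ductal epithelium markers had open start sites in both lines. All 10 ductal epithelium markers, among them Krt19, Epcam, Cdh1 and Sox9, had a region within 1 kb of a start site in each list. None of the 12 leukocyte markers and none of the 8 islet markers had one in either list. Among the 12 hepatocyte markers, which would be open in liver cells, 2 had a start-site region in mets (Apob and Asgr1) and 3 in tumor, where Ttr was added, and Alb had none. The number of marker genes with a start-site region was the same in both lists for endothelial cells, at 3 of 8, and for fibroblasts, at 2 of 9. Of the 10 acinar markers 2 had one in mets (Rbpjl and Cela1) and 3 in tumor, where Bhlha15 was added.

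The strongest one-list regions outside exons at 4 genes that gained regions in mets and at 2 that lost them are shown as sequence, because the counts below turn on such regions. Percentiles, in the order shown, were 47.1, 76.4, 66.4, 95.1, 39.1 and 40.8. Each is the 200 bp at the region's center, plus strand of GRCm38 (the build of mm10), in RefSeq's sequence, and overlaps no annotated exon. Capitals mark matches on either strand to 6 motifs, which were TGTTTAC for FOXA, TGTGGTTT for RUNX, AGATAAG for the GATA family, TGACTCA for AP-1, ACATTCCA for TEAD and CAAAGTCCA for HNF4. No matches overlapped each other. A match describes the letters and not a bound site.
Rgs3, mets-only, chr4:62722110-62722309, intron beyond the end of the Rgs3 record: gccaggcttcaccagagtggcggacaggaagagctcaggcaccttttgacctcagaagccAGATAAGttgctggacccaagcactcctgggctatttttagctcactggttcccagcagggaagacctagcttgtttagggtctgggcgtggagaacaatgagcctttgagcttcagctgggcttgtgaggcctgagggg
Abcg2, mets-only, chr6:58578072-58578271, intergenic: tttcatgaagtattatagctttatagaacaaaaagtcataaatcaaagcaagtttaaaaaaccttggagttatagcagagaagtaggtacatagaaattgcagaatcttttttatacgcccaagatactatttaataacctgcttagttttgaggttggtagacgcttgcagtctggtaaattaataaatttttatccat
Kalrn, mets-only, chr16:34389848-34390047, intron of Kalrn: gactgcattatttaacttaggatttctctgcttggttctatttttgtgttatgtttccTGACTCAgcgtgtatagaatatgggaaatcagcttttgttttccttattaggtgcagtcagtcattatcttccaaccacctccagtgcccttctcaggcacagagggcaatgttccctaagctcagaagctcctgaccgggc
Adra1b, mets-only, chr11:43919800-43919999, intergenic: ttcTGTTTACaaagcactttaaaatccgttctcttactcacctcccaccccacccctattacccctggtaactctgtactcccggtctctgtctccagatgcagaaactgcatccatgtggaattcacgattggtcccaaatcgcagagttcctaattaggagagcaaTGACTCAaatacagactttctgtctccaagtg
Tns1, tumor-only, chr1:74008830-74009029, intron of Tns1: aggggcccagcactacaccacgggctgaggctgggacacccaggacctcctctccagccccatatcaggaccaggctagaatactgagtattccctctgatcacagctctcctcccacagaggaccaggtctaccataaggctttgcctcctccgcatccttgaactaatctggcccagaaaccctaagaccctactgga
Foxp1, tumor-only, chr6:99106064-99106263, intron of Foxp1: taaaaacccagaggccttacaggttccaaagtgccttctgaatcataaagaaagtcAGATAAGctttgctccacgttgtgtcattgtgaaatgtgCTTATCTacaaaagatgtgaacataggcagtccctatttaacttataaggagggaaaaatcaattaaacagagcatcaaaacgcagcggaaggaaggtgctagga

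Across the same 200 bp windows, the AP-1 letters occurred in 26.2% of all mets regions and 24.8% of all tumor regions, the FOXA letters in 4.51% and 4.03%, the RUNX letters in 3.64% and 3.08%, the GATA letters in 3.26% and 3.25%, the TEAD letters in 2.08% and 1.88%, and the HNF4 letters in 0.622% and 0.61%. The AP-1 letters lay in 31.5% (Wilson 95% interval 29.6 to 33.4) of 2366 mets-only regions beyond 1 kb of a start site at genes that gained regions, against 25.9% (24.9 to 26.9) of 6915 at other genes. Among shared regions beyond 1 kb the shares were 30.7% (29.0 to 32.4) and 29.2% (28.7 to 29.7). Of the tumor-only regions beyond 1 kb at genes with a loss, 28.9% (23.8 to 34.6) held the AP-1 letters. For tumor-only regions at other genes the interval was 28.4 to 31.6. Both intervals overlapped that of mets-only regions at genes with a gain. The lowest of these AP-1 shares was that of mets-only regions at other genes. For FOXA the shares of mets-only regions were 5.54% (4.69 to 6.53) at genes with a gain and 5.22% (4.72 to 5.77) at other genes, with overlapping intervals. RUNX letters were found in 5.24% (4.41 to 6.21) of mets-only regions at genes with a gain and in 4.86% (4.38 to 5.39) of those at other genes, with overlapping intervals. They lay in 1.14% (0.389 to 3.30) of the 263 tumor-only regions at genes with a loss, against 2.09% (1.65 to 2.66) of tumor-only regions at other genes. These intervals cover counting error only.

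Genes mostly kept the same regions or added some in mets. Of the genes with a region, 7707 (47.8%) had none in 1 list only, 5146 had mets-only regions and no tumor-only region, 1766 had the reverse, and 1498 had both. A net gain of at least 3 regions (mets-only less tumor-only) was called at 671 of 16117 genes (4.16%), and a net loss of at least 3 at 79 (0.490%). This split rests on the longer mets list. With the mets list cut to its 68074 strongest regions, 196 genes gained and 411 lost, so that gains fell from 89.5% to 32.3% of the calls. Only mets regions were removed, so by construction all 196 were among the 671 and all 79 losses among the 411. Calls also followed the number of regions a gene had: the gain share was 3.52% among genes with 3 to 5 regions, 11.1% at 6 to 10, 20.5% at 11 to 20 and 40.4% at 21 or more.

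**Figure D1:**
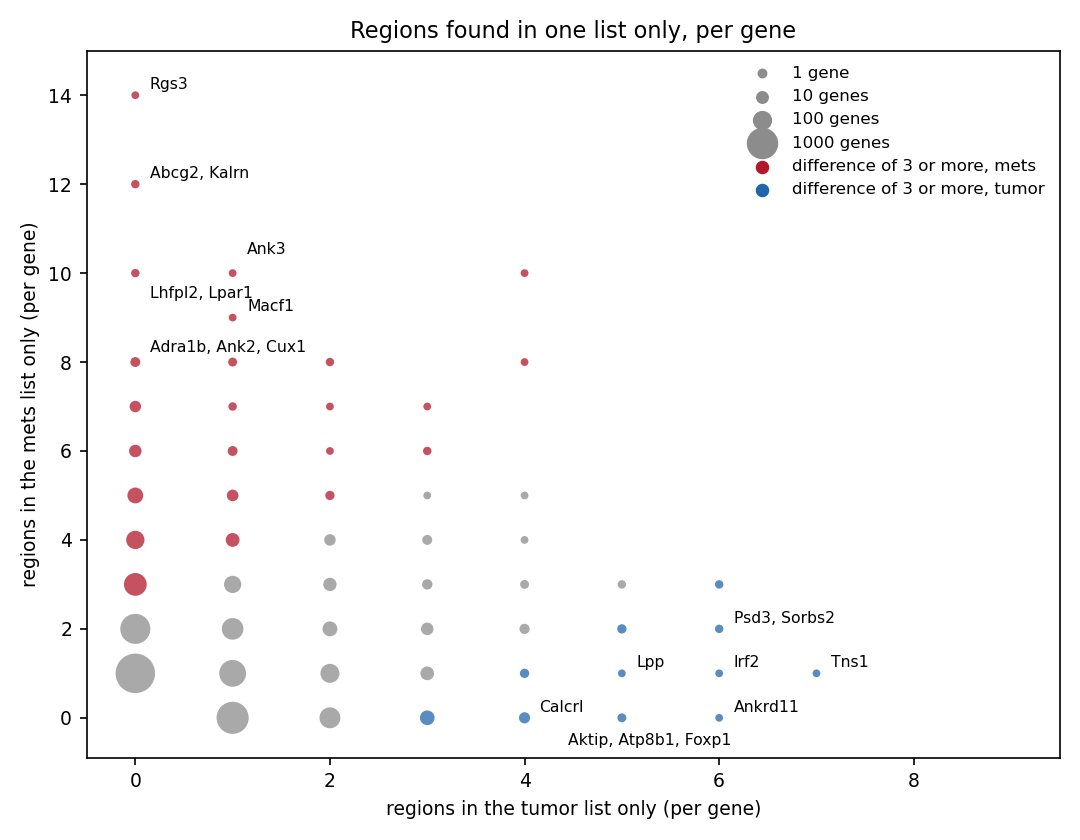
Protein-coding genes by the number of their regions found in the tumor list only (horizontal axis) and in the mets list only (vertical axis), with dot area growing with the number of genes at each point. Rgs3 lay highest, with 14 mets-only regions and no tumor-only region, and Tns1 farthest right, with 7 tumor-only regions and 1 mets-only region.

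At 3 of the 10 genes with the largest gains the tumor list had no region. Rgs3, a regulator of G-protein signaling that speeds the turning off of the alpha subunit, had 14 mets-only regions and no region at all in the tumor list. They were spread from its start at chr4:62559847 to beyond the end of the gene record at 62704001, with percentiles from 2.0 to 62.2 (median 22.1), and 1 at a start site reached 62.2. Abcg2, a drug efflux transporter (chr6:58584523-58695676), had 12 mets-only regions between percentiles 11.9 and 76.4 (median 39.6) and likewise none in tumor. Adra1b, the alpha-1B adrenergic receptor (chr11:43774606-43901210), had 8 mets-only regions and no tumor region, and these were strong, with a median percentile of 73.3. The region at its start site stood at percentile 93.6 and 1 upstream of the gene at 95.1.

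Other genes had a few regions in tumor and many more in mets. Kalrn, a guanine nucleotide exchange factor (chr16:33969073-34573532), had 12 mets-only regions (percentiles 12.5 to 66.4) beside 4 shared ones. The 4 shared regions moved from percentiles 35.2, 39.99, 51.3 and 13.1 in tumor to 64.6, 51.3, 75.7 and 61.1 in mets, a median rank change of 23.2 points. Lpar1, a receptor for lysophosphatidic acid (chr4:58435255-58553898), had 10 mets-only regions and 2 shared ones, which rose from 19.96 to 75.5 and from 31.3 to 72.2. At these 2 genes the shared regions all stood higher in mets as well. Lhfpl2 had 10 mets-only regions and 16 shared ones, of which 14 ranked higher than the all-region median change.

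Long genes with many regions in both lists made up the rest of the top 10. Ank2 and Ank3 encode ankyrins, which anchor membrane proteins to the cytoskeleton, and had 8 and 10 mets-only regions beside 14 and 20 shared ones. Ank2's mets-only regions had a median percentile of 44.1, and Ank3's 20.8. Macf1, which links microtubules to actin, had 1 of 7 shared regions above the all-region median change. It had 9 mets-only regions with a median percentile of 9.5. Cux1, a homeodomain factor, had 8 at a median of 14.4. With lists of equal size the net difference was 11 for Abcg2, 10 for Rgs3 and Kalrn, 8 for Adra1b, 7 for Ank2, 6 for Lpar1 and Lhfpl2, 4 for Ank3, 1 for Macf1 and 0 for Cux1. With the start of the gene record as the only start site it was 2 for Rgs3, 3 for Kalrn and Lhfpl2, 4 for Lpar1, 2 for Macf1, 1 for Ank3 and 0 for Ank2, and in the upper 50% of the lists it was 1 for Rgs3. Abcg2 and Adra1b kept at least 5 under each of the 6 alternatives run on single genes.

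In the lists as deposited the largest net losses were of 6 regions, at Tns1 and Ankrd11. Equal list sizes gave net losses of 12 and 9 at these genes, and of 8 at Irf2 and Psd3. Tns1, which encodes tensin 1 of focal adhesions (chr1:73910231-74124449), had 7 tumor-only regions against 1 mets-only region, and the tumor-only regions lay at percentiles 1.6 to 39.1. Only 1 of its 19 shared regions ranked higher than the all-region median change. Ankrd11, a chromatin regulator (chr8:122883822-123042277), had 6 tumor-only regions at percentiles 0.6 to 19.6, all in introns, while the region at its start site stood at 92.5 in tumor and 93.6 in mets. Irf2, an interferon regulatory factor (chr8:46739732-46847458), had 6 against 1. Aktip (chr8:91111784-91199976) had 5 tumor-only regions including 1 at percentile 88.0, the highest tumor-only value among the 10 genes. Foxp1, a forkhead factor, had 5 against 0 among 26 tumor regions. The others of the 10 were Psd3, Sorbs2, Lpp, Calcrl and the flippase gene Atp8b1, with net differences of -4 or -5. With only the upper 50% of each list by score, the net difference turned to 1 at Irf2, Foxp1 and Lpp and was 0 at Ankrd11 and Atp8b1.

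**Figure D2:**
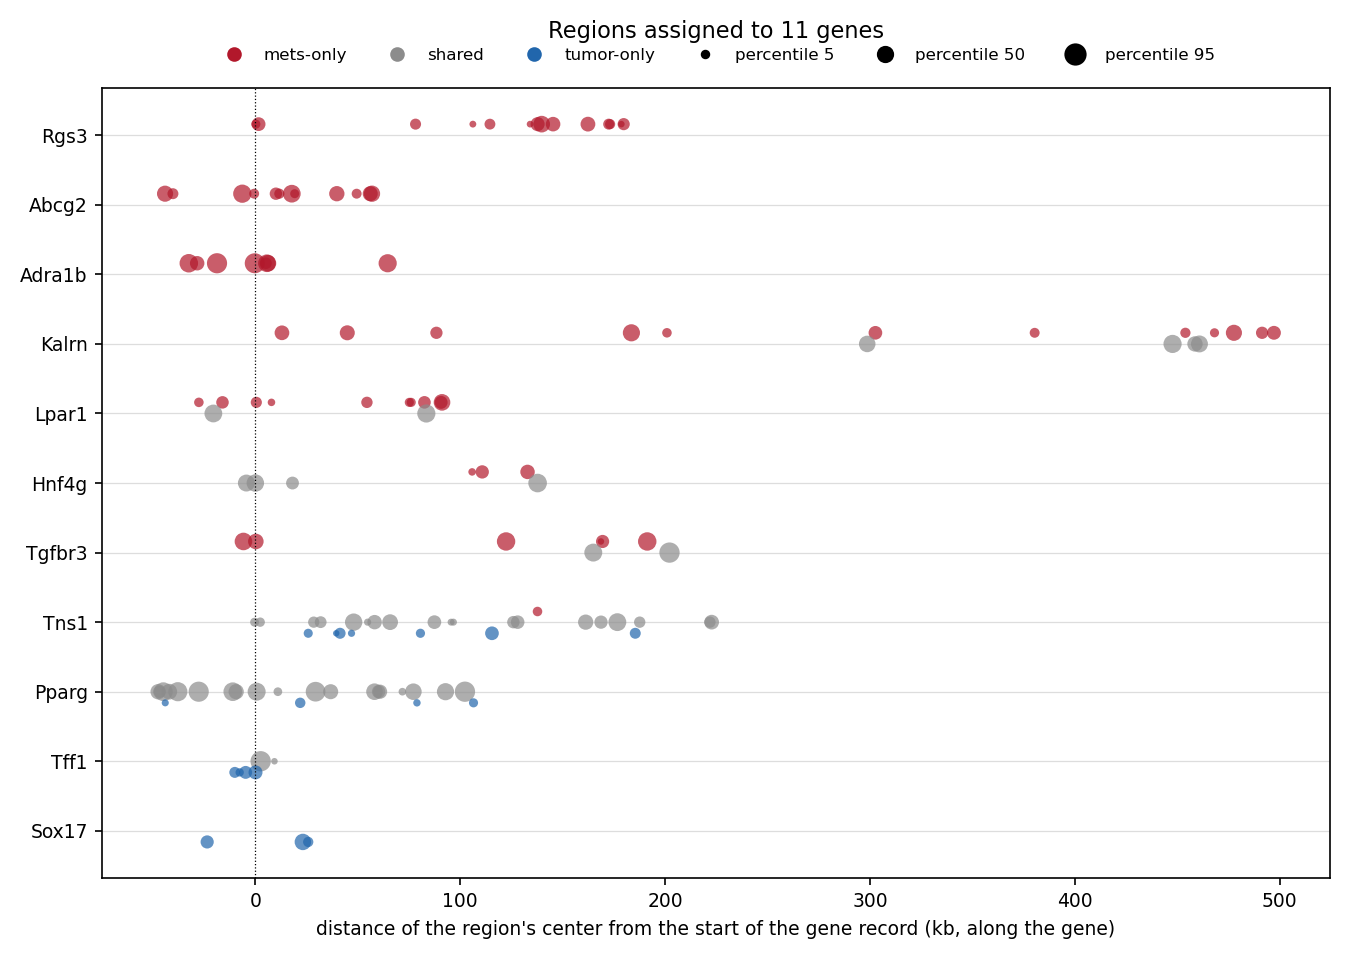
Regions assigned to selected genes by distance from the start of the gene record in kb, along the direction of transcription, with dot area growing with the score percentile. Rgs3, Abcg2 and Adra1b show mets-only regions alone, Sox17 shows tumor-only regions alone, and at Tff1 the 4 tumor-only regions lie at and upstream of the start.

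At 106 genes with at least 3 mets regions the tumor list had none (1.24% of the 8539 genes with 3 or more mets regions). The reverse was seen at 3 genes (0.0406% of 7394): Sox17, an endoderm factor, and Adam5 and Cyp4f18. With lists of equal size, 61 of the 106 still met the rule for mets. The reverse was not counted in that setting, so 61 has no tumor count beside it. After Rgs3, Abcg2 and Adra1b the genes with most regions were Isx, an intestinal homeobox factor, with 8, and Aim2, a sensor of cytosolic DNA, Edn2, an endothelin, and Ppm1h, a phosphatase, with 7 each. Edn2's 7 regions had percentiles from 18.5 to 82.6, and those of Isx from 2.1 to 40.8 with a median of 8.3. Thbs2, a matrix glycoprotein, had 6 with a highest percentile of 88.4, and Ccl2, a monocyte-attracting chemokine, had 5 with a highest of 72.3. Etv1, an ETS factor, had 4, including 1 at 76.9 near its start and 1 at 87.0 in an intron.

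Such regions often followed one another without a tumor region in between. Unbroken stretches of at least 10 mets-only regions numbered 66, and tumor-only stretches of at least 10 numbered 0. Those of at least 5 numbered 307 and 5. These counts come from the lists as deposited, of which the mets list is the longer. They were not repeated with lists of equal size. The stretch around Adra1b (chr11:43783796-44326027) had 24 mets-only regions with a median percentile of 64.4, 14 of them in the upper 50% of the list. At Abcg2 (chr6:58540184-58772386) 16 followed one another and at Rgs3 (chr4:62559990-62760743) 15. The stretch with the most regions, 25 on chr15:69291391-72117066, took in Fam135b and Col22a1. The tumor-only stretches included 5 regions at Tff1 and Tmprss3. DNA copy number of the lines was not analysed here, and its part in these stretches was not tested.

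Shared regions allow a change in strength to be read at genes whose regions are in both lists. Among 6819 genes with at least 3 shared regions, the median rank change was at least 10 points at 644 (9.44%) and at most -10 points at 395 (5.79%), against a median over genes of 0.36. With lists of equal size the counts were 382 and 573, of which 325 and 268 were among the first. Genes that gained regions leaned the same way in their shared regions: of the 426 with a rank change, 67 (15.7%) ranked higher and 9 (2.11%) lower, with a median of 2.17. Of 66 genes with a loss, 3 ranked higher and 5 lower, with a median of -2.55.

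Cnksr3, a scaffold of kinase signaling, had the highest rank change among genes with at least 5 shared regions, 43.9 points. Its 5 shared regions stood at percentiles 57.2, 15.3, 2.0, 5.8 and 19.4 in tumor and at 93.9, 62.9, 50.9, 86.4 and 58.7 in mets, so that every one was stronger in mets, and 3 further regions were mets-only. Counts of regions ranked higher are taken here against the all-region median change. S1pr1, a sphingosine-1-phosphate receptor, changed by 25.4 points, with 5 of 6 regions higher by that measure. Its regions stood at 23.3, 31.3, 24.5, 9.7, 19.3 and 88.1 in tumor and at 81.5, 79.2, 43.2, 46.2, 41.0 and 90.9 in mets. All 6 shared regions of Ankfn1 (23.6 points) and of Fam162b (22.4 points) ranked higher. At Gna14, a G-protein alpha subunit, the median of 26.4 points came from 3 weak regions that rose from near percentile 10, beside 1 that stayed at 98.2 to 99.0. Asz1 (26.7 points), Naip1 (23.8) and Hmgn3 (23.1) were mixed, with 3 of 5, 4 of 7 and 3 of 5 regions higher. Asz1 turned to -13.3 points and Hmgn3 to -6.78 in the upper 50% of the lists, and within 10 kb Asz1 turned to -20.3 and Naip1 to -0.17. S1pr1 fell to 1.63 points in the upper 50%, and Gna14 to 4.76 there and to 4.47 within 10 kb.

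Tenm4, a teneurin of cell-cell contact, had the lowest rank change, -39.6 points. Its 5 shared regions stood at 66.3, 12.2, 82.1, 68.2 and 48.4 in tumor and at 30.4, 3.1, 34.9, 7.1 and 18.5 in mets, all lower. The 5 regions of Cacna1a, a calcium channel gene, were also all lower than the all-region median change (-25.6 points). Insm1, a neuroendocrine zinc finger factor, changed by -27.5 points, and its strongest region fell from 96.2 to 43.5. Suclg2 of the citric acid cycle (-27.7 points), Tmem135 (-31.4), Fbxo17 (-26.5) and the Golgi mannosidase gene Man2a1 (-25.8) also ranked lower. Each had 4 of 5 regions below the all-region median change, and Agtrap (-27.2) had 3 of 5. In the upper 50% of the lists Tmem135, Suclg2, Agtrap and Fbxo17 turned to 13.7, 9.40, 13.4 and 2.07 points, and within 10 kb Tmem135 and Agtrap turned to 5.22 and 3.62.

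**Figure D3:**
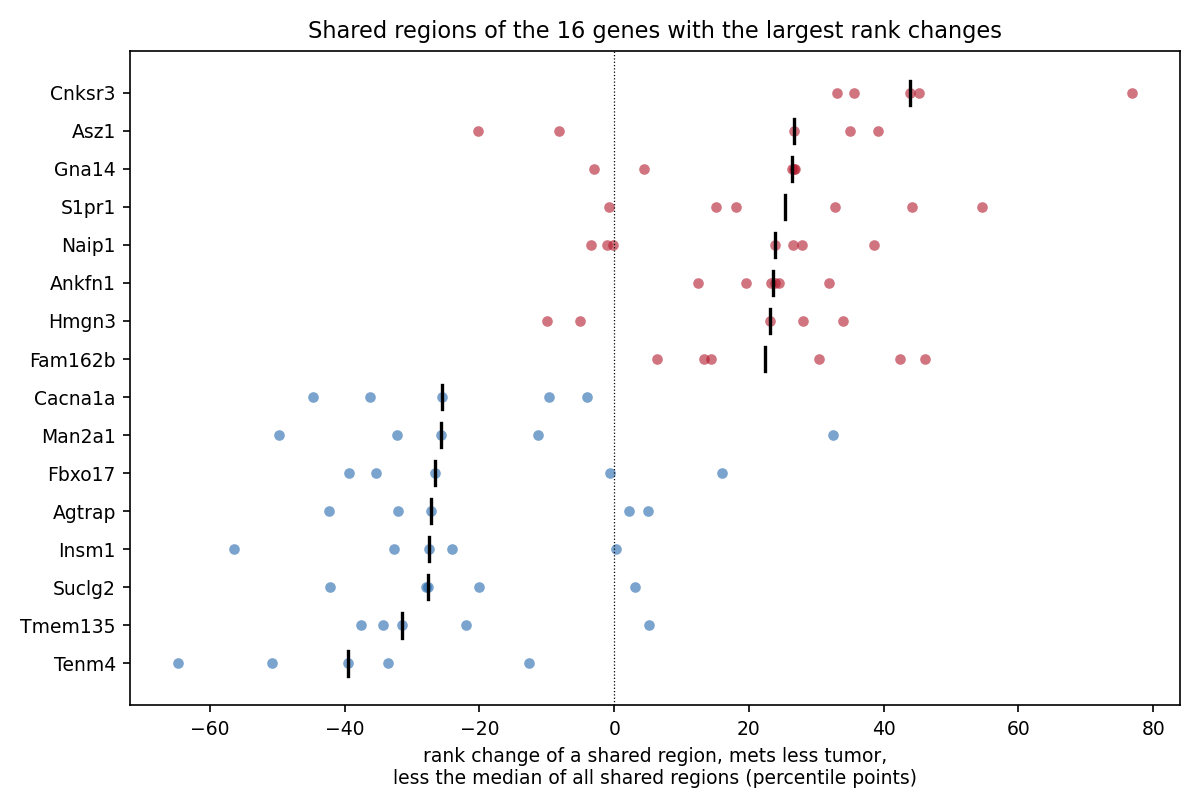
Rank change of each shared region (points) at the genes with the highest and the lowest median rank change, with the median as a black bar, in percentile points. All regions of Cnksr3, Ankfn1 and Fam162b lay above 0 and all of Tenm4 and Cacna1a below it, while Asz1, Hmgn3 and Man2a1 had regions on both sides.

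Start sites were mostly shared. Of 12853 genes with a region within 1 kb of a start site, 12158 (94.6%) had one in both lists. It was in the mets list only at 450 (3.50%) and in the tumor list only at 245 (1.91%), and with lists of equal size at 256 and 564. Adra1b led the first group at percentile 93.6. Crybb1 (91.5), whose region was itself shared, and Kcnj2, an inward rectifier potassium channel (84.5), were among the strongest, as were Olfr52 (81.4), Lrrc61 (79.9), Slc36a4 (77.5) and Etv1 (76.9). In the tumor-only group the 8 strongest, Spred3, Klrb1b, Aoc2, Urad, Fgfbp1, Pbld1, Atad5 and Prrt1 (73.0 to 60.5), were all regions that a mets region overlapped but whose mets partner ended more than 1 kb from the start site. Only regions that were themselves absent from the other list remained at 446 and 221 genes. Chosen after their values were seen, the strongest of these in tumor were Zpld1 (57.7), Scn9a (50.9), Vwde (50.7), Cacna1a (49.2) and Kcnn3 (47.7), so that the highest lay below those named for mets.

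The study centers on HNF4G and FOXA1, and Hnf4a and Foxa2 are set beside them as close relatives. Hnf4g and Hnf4a met the rule for a gain and Foxa1 and Foxa2 met none, but with lists of equal size neither gain was kept (net differences of 2 at Hnf4g and 0 at Hnf4a) and Foxa1 reached -3, a loss by the same rule. Hnf4g met the rules for a gain and for a higher rank, with 3 mets-only regions (percentiles 5.7, 36.5 and 44.6) and 4 shared ones that went from 18.1, 69.1, 4.7 and 65.7 in tumor to 64.7, 69.3, 33.3 and 79.7 in mets (17.6 points). The region at its start site stayed at 69.1 and 69.3, and the regions that moved lay elsewhere. Hnf4a had 3 mets-only regions, at 28.0, 35.7 and 1.1, and 6 shared ones with a rank change of -3.3 points. Foxa1 had 1 mets-only and 2 tumor-only regions, none above percentile 39.7, and 5 shared ones (-6.6 points), with its start site at 69.2 in tumor and 71.8 in mets. All 10 tumor regions of Foxa2 were shared (-7.6 points).

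Gene families and pathways were read by the share of their regions found in 1 list, against 17.3% (17.0 to 17.6) mets-only and 8.01% (7.78 to 8.25) tumor-only over all assigned regions. Beyond 1 kb of start sites these shares were 21.1% and 9.14%. Equal list sizes gave 11.5% and 15.3%, in the opposite order. Calls in a list are read against the shares over all genes, 4.16% for a gain and 0.490% for a loss, which rise with the number of regions a gene has. The lists were written with earlier results of these data known, and the intervals cover counting error only.

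Mesenchymal genes and laminins and collagens had a higher share of mets-only regions than all genes. Of the mesenchymal genes' 147 mets regions, 40 were mets-only (27.2%, 20.7 to 34.9), and of 110 tumor regions 3 were tumor-only (2.73%, 0.932 to 7.71), although the tumor-only share stood above that of all regions in the upper 50% of the lists. The mets-only share stood 9.87 points above that of all regions, and 5.12 points above with lists of equal size, 2.21 in the upper 50% and 1.12 within 10 kb. Gains were called at 6 of 31 genes (4.16% over all genes) and losses at 0 (0.490%). They were Thbs2, Tnc, an adhesion-modulating glycoprotein, with 5 mets-only regions, Sparc and Fn1, the gene of fibronectin, with 4 each, and Cd44 and Itga5 with 3. The shared regions of the list did not follow, with a median of -2.66 points, and 3 genes ranked lower: Cdh2, the gene of N-cadherin (-16.9 points), Tcf4 (-13.4) and Zeb1 (-12.1). All 3 lie on chromosome 18, where 13.5% of genes ranked lower. Acta2 alone ranked higher. Of the 6 gains, 2 were kept with lists of equal size.

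Laminins and collagens had 67 of 262 mets regions in mets alone (25.6%, 20.7 to 31.2), and 16 of 208 tumor regions in tumor alone (7.69%). Gains were called at Col14a1 (7 mets-only regions), Col18a1 and Lama3 (5 each), Col22a1 (4), Col6a3 and Col12a1 (3 each), and 5 of these 6 were kept with lists of equal size, where 5 other genes of the list lost regions. Lama3, a chain of the laminin of epithelial basement membranes, also ranked higher by 20.8 points with 3 of 3 regions. Cadherins outside the clusters had 25.5% mets-only regions (18.98 to 33.4), with gains at Cdh9, Fat2 and Celsr1, of which 2 were kept with lists of equal size. Integrins, the receptors for this matrix, had 14.4% (9.77 to 20.6), and gains at Itgb6, Itgb5 and Itga5, of which 0 were kept with lists of equal size.

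Chemokines, interleukins and their receptors had 115 of 441 mets regions in mets alone (26.1%, 22.2 to 30.4), and a tumor-only share of 8.91% (6.35 to 12.4) that held the share of all regions. Gains were called at 11 of the 114 genes with a region (4.16% over all genes) and losses at 0 (0.490%), and 4 of the gains were kept with lists of equal size, where 2 genes lost regions. Ccl2, Ccl1, Il13ra2, Lif and Lifr had 5 mets-only regions each. At Ccl2 and Il13ra2 the tumor list had no region, and at Ccl1 it had 1. Lif and its receptor gene Lifr had 8 and 7 tumor regions.

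Voltage-gated and ligand-gated ion channels stood out in both directions, with 26.6% (22.3 to 31.5) mets-only and 14.2% (10.7 to 18.7) tumor-only. Of 52 genes with a start-site region, 5 had it in mets only (3.50% over all genes), including Kcnj2, and 9 in tumor only (1.91%), including Scn9a, Cacna1a and Kcnn3. Equal list sizes gave 3 and 19. SOX factors had the highest shares among the transcription factor families, 43.9% (29.9 to 59.0) of 41 mets regions and 23.3% (11.8 to 40.9) of 30 tumor regions. Sox9, a ductal factor, and Sox14 gained 3 regions each and Sox17 lost 3. With lists of equal size 1 of these 2 gains was kept, Sox9 fell to a net difference of 2, and 2 genes of the list lost regions. Olfactory and vomeronasal receptors, which lie in clusters and are silent in most tissues, had 35.6% (29.9 to 41.6) mets-only regions. None of these genes had a net gain of 3, against 4.16% over all genes. However, the 156 with a region held 253 mets regions, and genes with 1 or 2 regions could not meet that rule.

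Genes needed in every cell had few one-list regions. Mets-only regions made up 6.38% (2.96 to 13.2) of those at proteasome subunits, 7.33% (4.42 to 11.9) at ribosomal proteins, 11.2% (7.56 to 16.2) at cell cycle genes and 11.7% (8.08 to 16.8) at respiratory chain subunits, and none of these lists had a gene with a net gain or loss, although genes with 1 or 2 regions could not meet those rules. In lists of equal size 3 cell cycle genes lost regions. Beyond 1 kb of start sites the shares were 11.5%, 13.1%, 15.4% and 18.5%, of 52, 107, 136 and 124 regions. These values were below the 21.1% of all such regions. No interval was computed for them, so a difference beyond counting error is not shown. Zinc finger genes named Zfp had 13.1% (10.96 to 15.6). Of their 446 mets regions beyond 1 kb of start sites 19.96% were mets-only, near the 21.1% of all such regions. AP-1 factor genes had 9.94% (6.21 to 15.5), but stood above all regions in the upper 50% of the lists, and 1 of 31 gained, Bach2, and 1 lost, Atf3.

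**Figure D4:**
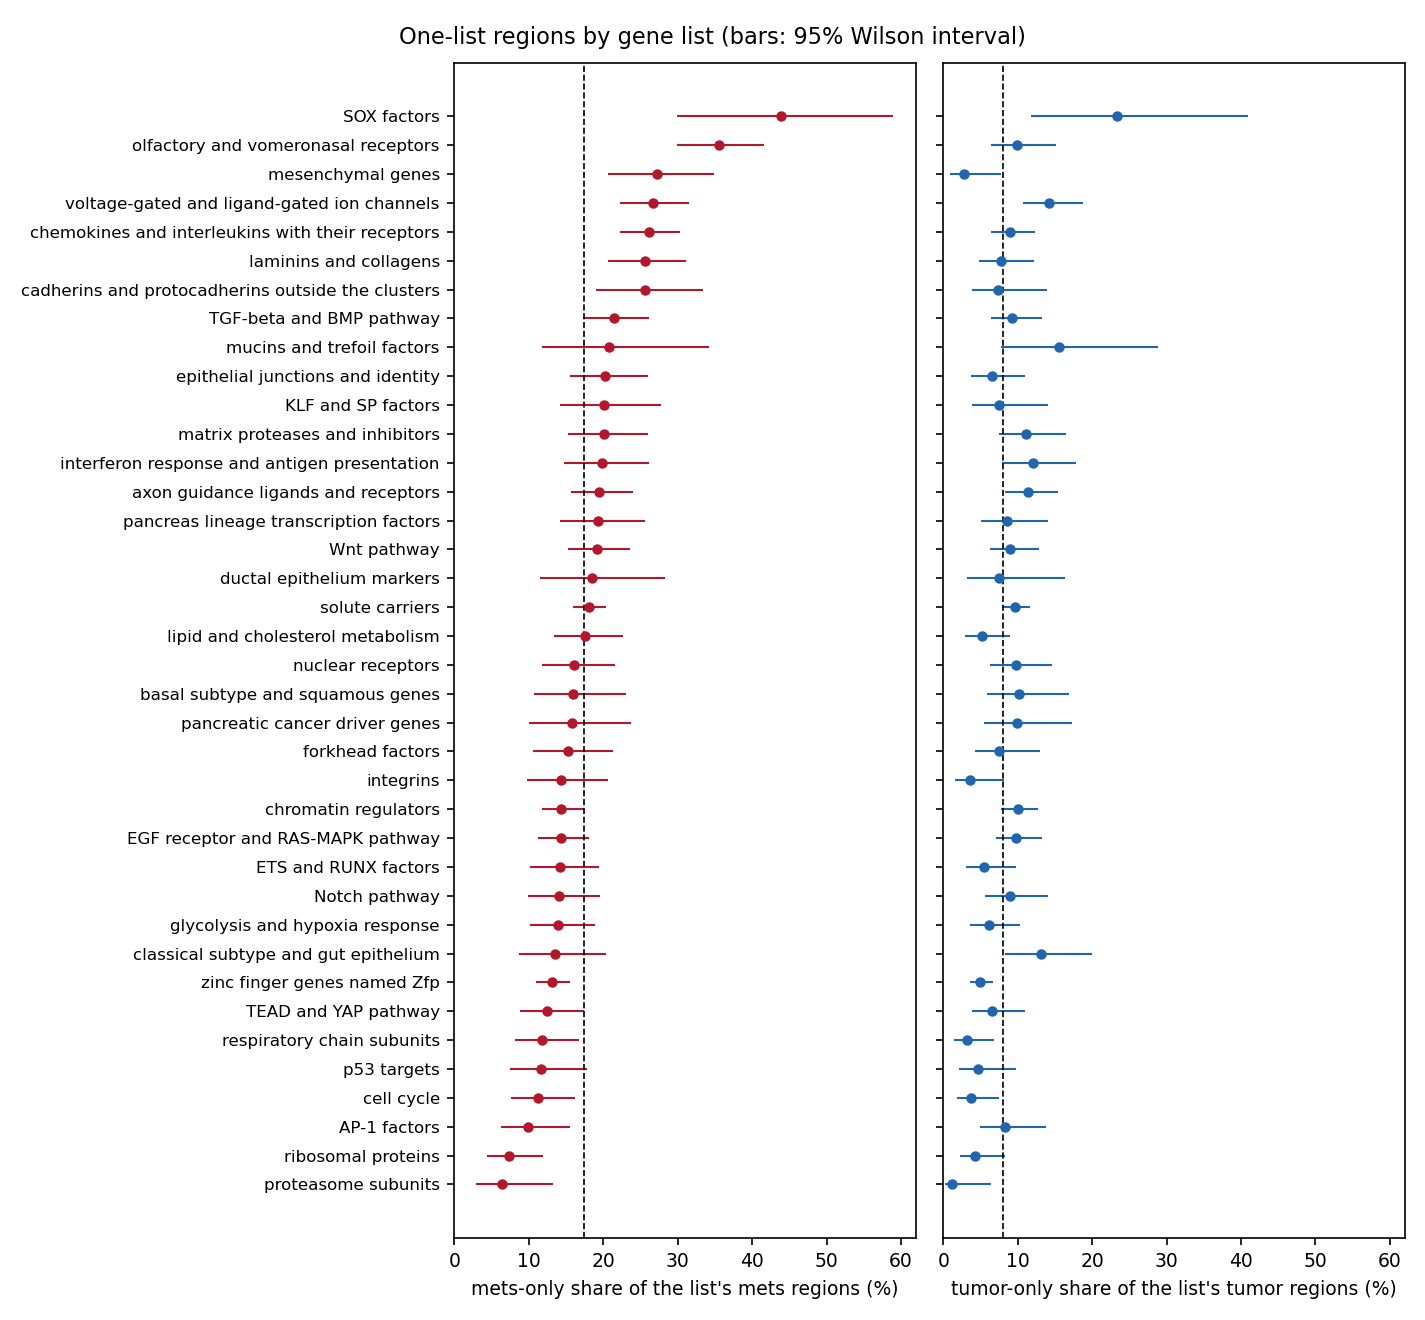
Share of each gene list's mets regions that are mets-only (left) and of its tumor regions that are tumor-only (right), in percent, with Wilson intervals and dashed lines at the shares over all assigned regions, 17.3% and 8.01%, for the lists shown, each with at least 40 mets and 30 tumor regions. SOX factors lay highest on both sides and proteasome subunits lowest.

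Lineage and subtype genes moved in part. Pancreas lineage factors had 19.2% (14.2 to 25.6) mets-only regions, close to all genes, and 5 of 28 gained regions and 0 lost, beside 4.16% and 0.490% of all genes and gains at 11.1% of genes with 6 to 10 regions. These were Hnf4a, Hnf4g, Sox9, Nr5a2, an acinar and ductal nuclear receptor with 3 mets-only regions (percentiles 16.4, 78.0 and 77.4) and none in tumor, and Onecut1, which gained 4 and ranked higher by 25.05 points. With lists of equal size 1 of the 5 gains, that of Nr5a2, was kept and 5 other genes of the list lost regions. Genes of the classical subtype and gut epithelium had a tumor-only share of 13.1% (8.33 to 19.9), above all regions except in the upper 50% of the lists, where it stood below. Tff1, a secreted trefoil peptide, lost 4 regions including the 1 at its start site (percentile 41.1), and Cldn18 gained 3. Lgals4 (19.6 points), Spink4, Muc1 and Erbb3 ranked higher and 0 genes ranked lower. The mets-only share of the list was 13.5% (8.74 to 20.4), with an interval that held the share of all regions. A start-site region was in mets only at 4 genes (Cdh17, Agr2, Spink4 and Fut2) and in tumor only at 1, Tff1. With lists of equal size 0 gains were kept, and these start-site counts were 1 and 2. Genes of the basal subtype had 15.9% (10.6 to 23.1) mets-only and 10.2% (5.91 to 16.9) tumor-only regions, with gains at Slc2a1, Fat2 and Gjb6 and a loss at Areg. With lists of equal size 1 of these 3 gains was kept, as was the loss.

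Signaling pathways had shares whose intervals held that of all regions. The TGF-beta and BMP pathway had 21.4% (17.3 to 26.1) mets-only regions, Wnt 19.1% (15.3 to 23.6), Notch 14.1% (9.92 to 19.6), TEAD and YAP 12.5% (8.79 to 17.5), and the EGF receptor and RAS-MAPK pathway 14.3% (11.2 to 18.1). Single genes within them changed. Tgfbr3, a TGF-beta co-receptor, had 6 mets-only regions, 1 of them at its start site at percentile 53.1, and its 2 shared regions rose from 65.9 to 96.5 and from 18.1 to 73.5. Tgfb2 and Tcf7l1 gained 5 and 4. Egfr and its ligand gene Areg had net losses of 3. With lists of equal size the TGF-beta and BMP pathway kept 1 of 5 gains and had 6 losses. Wnt kept 1 of 4 and had 3 losses, and the EGF receptor and RAS-MAPK pathway kept 0 of 3 and had 6. Notch kept 0 of 1 and TEAD and YAP 0 of 3, with 3 and 2 losses. Single genes outside these pathways, in other lists, changed as well. Runx3 gained 5 regions, and its 3 shared regions rose from 25.8, 4.9 and 46.5 to 55.9, 38.9 and 99.0. Pparg, a nuclear receptor of lipid metabolism, lost 4. Of its 19 shared regions 10 ranked higher than the all-region median change and 9 did not (median 0.21 points). Hdac9, a histone deacetylase gene, gained 7. Abca1, a cholesterol efflux transporter, gained 3, and its 2 shared regions rose from 18.1 to 89.6 and from 24.8 to 65.4. Equal list sizes gave net differences of 6 at Hdac9, 5 at Tgfbr3 and 3 at Runx3. Tgfb2 and Abca1 fell to 2 and no longer met the rule for a gain. The values were -6 at Pparg, -5 at Egfr and -3 at Areg.

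Calls were unevenly spread over the genome. Chromosome 13 had gains at 9.59% of its genes, chromosome 1 at 8.51% and chromosome 10 at 6.70%, against 1.19% on chromosome 8. Losses were called at 2.05% of genes on chromosome 18 and 1.55% on chromosome 8, against 0 on chromosome 13. Rank changes leaned the same way: 20.2% of genes on chromosome 13 and 19.4% on chromosome 10 ranked higher, and 13.2% on chromosome 8 and 13.5% on chromosome 18 ranked lower. Lhfpl2, on chromosome 13, and Ank3, on chromosome 10, thus lie where gains were common, and Ankrd11, Irf2, Aktip, Psd3 and Sorbs2 on chromosome 8, where 13.6% of assigned tumor regions were tumor-only. Rgs3 and Lpar1 (chromosome 4, 3.55%), Abcg2 (chromosome 6, 4.20%), Kalrn (chromosome 16, 3.01%) and Adra1b (chromosome 11, 2.63%) lie where the gain share was close to or below the 4.16% over all genes. Without chromosomes 8 and 13 gains were called at 600 genes and losses at 66. Differences in chromosome copies between the lines were not analysed here, and their part was not tested.

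**Figure D5:**
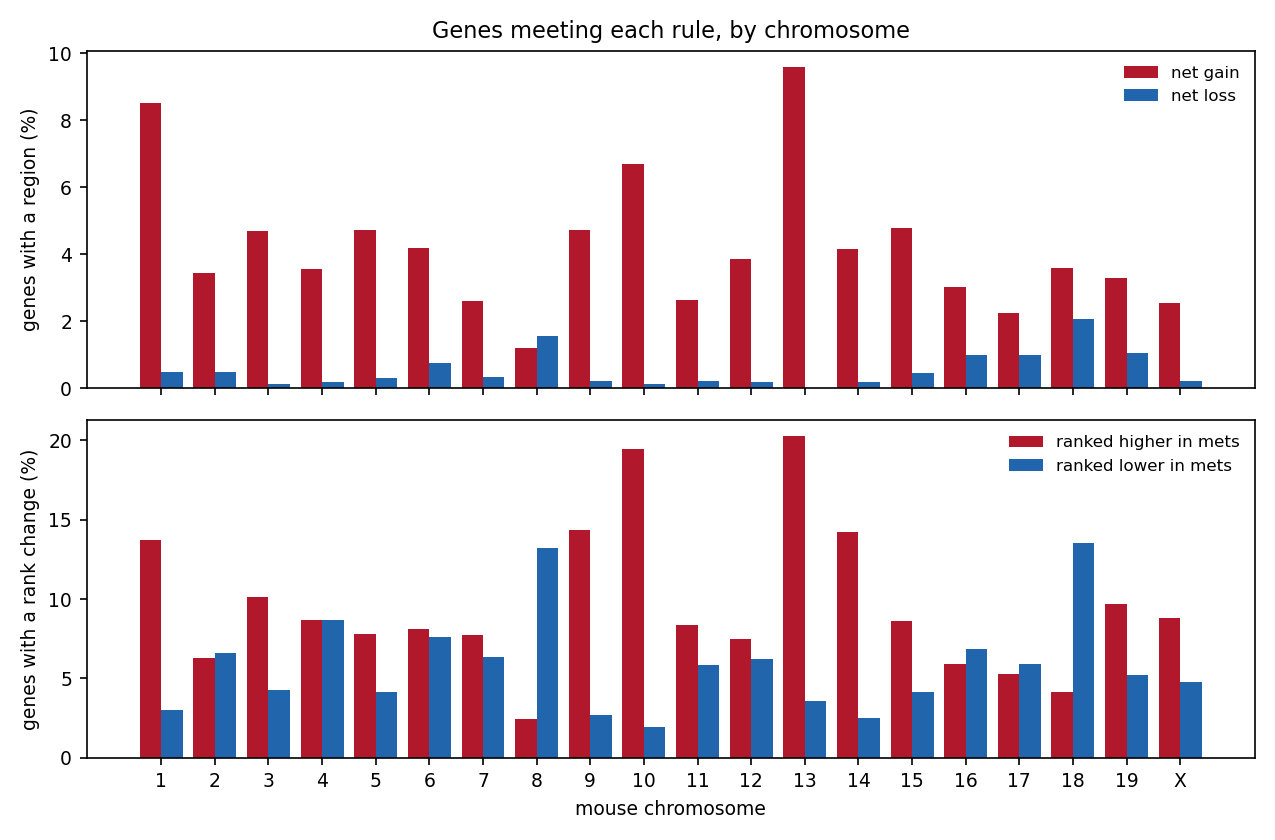
Share of genes meeting each rule by mouse chromosome, in percent of genes with a region (top, net gain and net loss) and in percent of genes with at least 3 shared regions (bottom, ranked higher and lower in mets). Chromosomes 13, 1 and 10 stand high for gains, and chromosomes 8 and 18 for losses and lower ranks.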

How the data were processed

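ATAC-seq libraries were mapped and regions were called by the authors. The submitters' processing notes name Bowtie2 2.2.6, MACS2 2.1.1.20160309 and DiffBind, and the builds mm10 and GRCm38. The study's ATAC-seq methods name human HPAF-II cells only, and how the 4 replicates of each KPC line were combined is not given in the sources used here. The deposited region lists carry a score per region, made by the authors on a scale not given in the sources used here, and it entered as a rank within its list (deposited scores ranged from 62 to 2301 in tumor and from 61 to 2251 in mets). Lists of the human line were not used here.

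Genes and start sites were those of protein-coding transcripts in GENCODE vM21. Distances were taken from a region's edge, and for rank changes a tumor region was paired with the mets region of longest overlap. A start site had a region where one lay within 1 kb. Calls needed a net difference of at least 3 regions, or a median rank change of at least 10 points over at least 3 shared regions. Named were the 10 genes with the highest and lowest net difference, the 8 with the highest and lowest rank change among genes with at least 5 shared regions, the 8 strongest start-site genes per list, in each gene list the 3 genes with most regions and any that met a call rule (examples are given), and Foxa1, Foxa2, Hnf4a and Hnf4g. Genes known only by a Gm or Rik name were passed over. Genes without a region in the other list, stretches and the start-site genes whose region is itself absent from the other list were added after the data had been seen. The genes, gene lists and rules were chosen with earlier results of these data known. With 1 list per line there was no test between lines. Shares carry Wilson 95% intervals. Region sequence was read from RefSeq's GRCm38.p6. Scripts ran in Python 3.11.15 with numpy 2.4.6 and pandas 2.3.3, were tested on simulated lists, and alternatives covered overlap, score, list size, distance, assignment, chromosomes and thresholds. Some genes, 1 gene list and 1 region sequence are not reported here.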

Additional observations from a re-analysis of the deposited data

How the results depend on the processing

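No paired analysis was possible because each line is represented by 1 list and no value is held per replicate. For the same reason no fit without 1 replicate was run. The depth behind each list is unknown, and the median percentile of mets-only regions was 18.5.

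Of 50 recomputed counts of genes, 31 stayed within 1.5 times the count reported. With lists of equal size there were 196 genes with a net gain, 411 with a net loss, 382 ranked higher, 256 with a start-site region in mets only and 564 in tumor only. In the upper 50% of each list there were 273 gains, 12 losses and 731 start-site regions in mets only. Within 10 kb there were 135 gains, 15 losses, 379 ranked higher and 197 ranked lower. Counting every gene within 50 kb gave 1770 gains and 275 losses. The start of the gene record alone gave 50 losses. A net difference of at least 5 left 133 gains and 6 losses, and a rank change of at least 15 points left 263 higher and 142 lower. The smaller counts under stricter thresholds and distances follow from their construction. With lists of equal size only mets regions were removed. Gains and start-site regions in mets only could therefore only fall, and losses and start-site regions in tumor only could only rise. For the rank calls and the other settings the cause was not tested.

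Among 20 genes named for their net difference, 55 of 120 recomputations moved the value beyond 1.5 times without turning it, including 0 at Cux1 with lists of equal size and at Ank2 with the start of the gene record alone. The direction turned in 3, to 1 at Irf2, Foxp1 and Lpp in the upper 50%. Among 16 named for a rank change 17 of 124 moved it likewise and 10 turned it. In the upper 50% the values became -13.3 for Asz1, -6.78 for Hmgn3, 13.7 for Tmem135, 9.40 for Suclg2, 13.4 for Agtrap and 2.07 for Fbxo17, and within 10 kb -20.3 for Asz1, -0.17 for Naip1, 5.22 for Tmem135 and 3.62 for Agtrap.

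For gene lists whose interval left out the share of all regions, the difference from that share moved beyond 1.5 times with the same sign in 50 of 192 recomputations. It changed sign in 6, and all 6 were in the upper 50%, where a region whose partner falls under the limit counts as one-list. There the tumor-only difference became -7.66 points for the classical list and for hepatocyte markers, 10.1 for mesenchymal genes and -0.097 for axon guidance, and the mets-only difference became 3.51 for AP-1 factors and -0.18 for islet markers. The limit to regions beyond 1 kb of start sites was added after seeing the data and turned none of them.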
